A study of Mus musculus with 8 samples.

Results

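The angiopoietin-like genes Angptl1, Angptl2, Angptl4, Angptl6 and Angptl7 were followed in quadriceps muscle RNA of mice with and without a subcutaneous colorectal tumour. They were taken by gene symbol from a deposited count table of 35494 symbols, and all 5 were found. All 5 also passed the filter on low counts that left 14112 genes for testing. Angptl8, another gene of the family, did not pass it. The 5 were picked with results of the tumour comparison known, so their differences between the groups are given as a description and support nothing.

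Libraries came from 8 male C57BL/6 mice that were 8 weeks old and labelled wild type. In the tumour group (scMC38, 4 mice) 1000000 MC38 cells, a mouse colorectal cancer line, were placed under the skin. The control group (4 mice) received sterile saline by the same route. Muscle was taken at day 28. Each library is 1 mouse, the tumour is a graft of a cultured line rather than one that arose in the colon, and the series title calls the wasting mild. Replicate numbers are those of the labels and do not tie a tumour-bearing mouse to a control.

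Angiopoietin-like proteins are secreted. Most carry an N-terminal coiled-coil stretch and a C-terminal fibrinogen-like domain, the same plan as the angiopoietins, but they are not ligands of the Tie2 receptor. Angptl4 and Angptl8 take part in restraining lipoprotein lipase, the enzyme that frees fatty acids from circulating fat for uptake by muscle and fat tissue. In muscle, Angptl4 is best known as a gene switched on by fatty acids through PPAR nuclear receptors, and it also responds to glucocorticoids and low oxygen. Angptl2 is linked to inflammation in adipose tissue and other tissues, Angptl6 to energy use in mice, Angptl7 to the eye, and Angptl1 to restraint of vessel growth.

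The promoters of Angptl1 and Angptl2 are shown because these are the genes whose libraries did not overlap between the groups. Sequences are those of RefSeq on build GRCm38.p6, from 250 bases before to 50 bases after the start of the gene, which is an earlier build than the GRCm39 named for the counts. Angptl1 stands at chr1:156838773-156839072 and Angptl2 at chr2:33215711-33216010, both on the plus strand. Capitals mark TGACGT, the core of a cyclic AMP response element with its flank, and GGGCGG, the GC box, on either strand.
Angptl1: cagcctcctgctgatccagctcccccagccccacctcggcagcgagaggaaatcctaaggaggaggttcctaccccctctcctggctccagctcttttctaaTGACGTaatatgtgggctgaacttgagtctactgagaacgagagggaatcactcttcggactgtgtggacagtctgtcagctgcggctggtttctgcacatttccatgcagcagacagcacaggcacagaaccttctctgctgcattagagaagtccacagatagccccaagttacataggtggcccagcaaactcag
Angptl2: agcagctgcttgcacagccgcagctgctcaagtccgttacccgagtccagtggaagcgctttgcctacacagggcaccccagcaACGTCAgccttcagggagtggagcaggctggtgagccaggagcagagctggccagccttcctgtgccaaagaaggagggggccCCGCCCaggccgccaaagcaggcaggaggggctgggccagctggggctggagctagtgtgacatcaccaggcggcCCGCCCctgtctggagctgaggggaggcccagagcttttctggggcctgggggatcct
TGACGT occurred once in each of the 2 promoters, and 7.64% of 27025 promoters of this length, 1 per gene, held it. GGGCGG occurred 2 times in the Angptl2 promoter and 0 times in that of Angptl1, and 35.9% of promoters held it. The promoters of Angptl6 and Angptl7 held neither. Angptl4 had no entry in the promoter table. In all, 10 short motifs were searched, and the list was written after these sequences had been seen. The TATA box TATAAA, the CAAT box CCAAT, the AP-1 motif TGANTCA, the STAT motif TTCNNNGAA, the forkhead motif TGTTTAC, the nuclear receptor motif AGGTCA and the glucocorticoid receptor motif TGTTCT, each on both strands, were in none of these 4 windows. They were held by 14.2%, 37.9%, 7.93%, 8.47%, 3.55%, 16.0% and 19.0% of promoters in that order. The E-box CANNTG was present in each of the 4 and in 72.1% of promoters. The GC content was 54.3% for Angptl1 and 66.7% for Angptl2.

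In the genome, 3 of the 5 genes lie wholly inside another gene on the opposite strand. Angptl1 (chromosome 1) lies in Ralgps2, Angptl2 (chromosome 2) in Ralgps1 and Angptl7 (chromosome 4) in Mtor, and no annotated exon bases are shared with these hosts in GENCODE M21. Angptl6 is on chromosome 9 and partly overlaps A230050P20Rik on the opposite strand. Angptl1 also overlaps Gm37802 on the opposite strand, without lying wholly inside it. Shared exon bases were not computed for A230050P20Rik and Gm37802. The counting is not stated to use strand, so unspliced reads of a host could be counted with the gene inside it. Ralgps2, a guanine nucleotide exchange factor, stood at 1.66 ± 0.493 counts per 1000000 (CPM, TMM-scaled) in controls and 1.52 ± 0.661 CPM in scMC38 (SD, n = 4), below Angptl1 in each library. Ralgps1, of the same family, stood at 4.09 ± 0.292 and 3.43 ± 0.398 CPM, and Mtor, the growth kinase, at 39.2 ± 2.40 and 46.5 ± 3.92 CPM (SD, n = 4). None of these 3 host genes was called (log2 fold change -0.12 for Ralgps2, -0.25 for Ralgps1 and 0.25 for Mtor; edgeR adjusted p = 0.865, 0.315 and 0.147).

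Libraries held 50466729 to 62107372 estimated counts. At this depth the 5 genes had between 97 and 3913 counts in a library. Markers of muscle fibres such as Ckm and Acta1 were at 17785 CPM or more in all 8 libraries. Libraries scMC38 1 and 3 held bone and marrow RNA, with Ibsp, a bone matrix gene, at 40.5 and 137 CPM and Mpo, a gene of marrow progenitors, at 18.3 and 174 CPM, against at most 1.4 and 0.138 CPM in the other 6. Control 1 and 2 held 24.3% and 29.7% mitochondrially encoded counts, and the other 6 libraries 14.4% to 18.9%. In bulk tissue, fewer cells of a type and less RNA per cell cannot be told apart.

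On a scale of CPM per kilobase of the longest annotated coding transcript, Angptl2 was the most abundant of the 5 in controls at 18.1 ± 3.99 (SD, n = 4). Angptl7 followed at 11.0 ± 8.46, then Angptl1 at 5.65 ± 0.916, Angptl6 at 2.80 ± 0.519 and Angptl4 at 1.97 ± 1.88. Angptl2 was above Angptl7 in 4 of 4 control libraries, Angptl7 above Angptl1 in 3 of 4, Angptl1 above Angptl6 in 4 of 4, and Angptl6 above Angptl4 in 3 of 4. In scMC38 the order per length was Angptl2 (11.6 ± 1.31), Angptl7 (10.6 ± 6.72), Angptl6 (2.93 ± 0.192), Angptl1 (2.09 ± 0.286) and Angptl4 (1.73 ± 0.727; SD, n = 4). Angptl2 and Angptl7 did not keep an order there, each being the higher in 2 of 4 libraries. Angptl1, which stood above Angptl6 in every control, stood below it in 4 of 4 scMC38 libraries on this scale, an order that turns with the transcript length used. These levels assume that the longest transcript, between 1582 and 3339 bases, is the one made. With the shortest coding transcript of each gene, the control and scMC38 means would be 11.2 and 4.16 for Angptl1 and 84.5 and 54.3 for Angptl2, with Angptl1 above Angptl6 in 4 of 4 libraries of both groups and Angptl2 above Angptl7 in 4 of 4. Values stay as above for the other 3, which have 1 coding transcript each.

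Angptl1, described in human cells as an anti-angiogenic factor, was lower in muscle of tumour-bearing mice. Its level was 17.7, 12.4, 16.3 and 13.5 CPM in controls 1 to 4 and 6.56, 5.58, 5.25 and 4.76 CPM in scMC38 1 to 4. Every scMC38 library lay below every control. The means were 14.97 ± 2.43 and 5.54 ± 0.757 CPM (SD, n = 4), 2.70 times higher in controls. The log2 difference was -1.43 (SE 0.15; 95% interval -1.76 to -1.10). 
Without scMC38 1 and 3, the libraries with bone and marrow RNA, the difference was -1.51 (SE 0.18) on the log2 scale. With any single library left out it ran from -1.52 to -1.35.

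Angptl1 was the 1 member of the 5 called, at an adjusted p under 0.05 over all tested genes in edgeR's quasi-likelihood test, where 1.20% of 14112 genes were called in either direction, 0.468% lower and 0.737% higher. The call was lost without control 1 (log2 fold change -1.35) and without control 1 and 2 together (-1.44). Angptl1 and Angptl2 were the 2 members whose groups did not overlap, and 13.3% of tested genes were separated in this way, 6.45% with scMC38 lower and 6.80% with scMC38 higher. As the choice of genes used this comparison, nothing is read from these counts.

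Angptl2 differed less. It stood at 53.0, 47.8, 78.2 and 62.2 CPM in controls 1 to 4 and at 43.7, 39.3, 33.0 and 39.0 CPM in scMC38 1 to 4. The groups did not overlap, but the gap between the lowest control (control 2) and the highest scMC38 library (scMC38 1) was small beside the spread of the controls. Group means were 60.3 ± 13.3 and 38.8 ± 4.37 CPM (SD, n = 4). On the log2 scale scMC38 was 0.64 below control (-0.64, SE 0.16), and the gene was not called. DESeq2 called it (log2 fold change -0.63). The difference was -0.60 without scMC38 1 and 3 and between -0.74 and -0.49 with any single library left out.

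**Figure D1:**
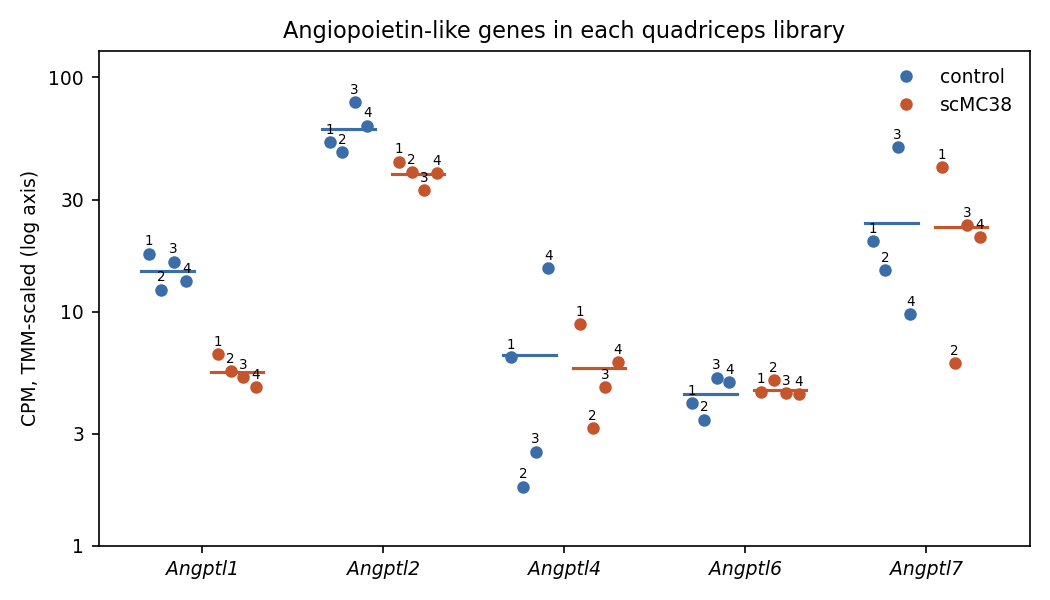
TMM-scaled CPM (log axis) of the 5 genes in each of the 4 control and 4 scMC38 libraries. Points are libraries with their replicate number and bars are group means. Angptl1 and Angptl2 do not overlap between groups, while Angptl4 and Angptl7 spread widely in both.

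Angptl4, the lipase inhibitor of the set, showed no shared direction. It was 6.39, 1.79, 2.52 and 15.4 CPM in controls 1 to 4, an 8.58-fold range among mice given saline. In scMC38 1 to 4 it was 8.85, 3.18, 4.74 and 6.08 CPM. All 4 scMC38 libraries lay inside the control range. The means were 6.51 ± 6.23 and 5.71 ± 2.41 CPM (SD, n = 4), and the log2 fold change was -0.19 (SE 0.63; 95% interval -1.63 to 1.25). Without control 4 the log2 fold change was 0.68, the opposite direction, also not called, and it was 0.0091 without scMC38 2. The interval leaves room for a difference of more than 2-fold in either direction, so these libraries cannot show that Angptl4 is alike in the groups.

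Angptl6, also called angiopoietin-related growth factor, was the steadiest of the 5 in scMC38. It was 4.07, 3.45, 5.22 and 4.99 CPM in controls 1 to 4 and 4.55, 5.09, 4.48 and 4.43 CPM in scMC38 1 to 4. The scMC38 libraries fell inside the control range. The means were 4.43 ± 0.821 and 4.64 ± 0.303 CPM (SD, n = 4), and the log2 fold change was 0.07 (SE 0.15; 95% interval -0.28 to 0.42). The sign turned without control 2 (-0.04).

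Angptl7, a gene of connective tissue in the eye, varied most in scMC38. It was 20.03, 15.01, 50.4 and 9.74 CPM in controls 1 to 4 and 41.3, 6.01, 23.5 and 20.7 CPM in scMC38 1 to 4. The groups overlapped over most of their range, with control 3 and scMC38 1 high and control 4 and scMC38 2 low. The means were 23.8 ± 18.2 and 22.9 ± 14.5 CPM (SD, n = 4), and the log2 fold change was -0.06 (SE 0.62; 95% interval -1.48 to 1.37). It was 0.61 without control 3, 0.26 without scMC38 2 and -0.82 without scMC38 1 and 3, so its direction depends on single mice.

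**Figure D2:**
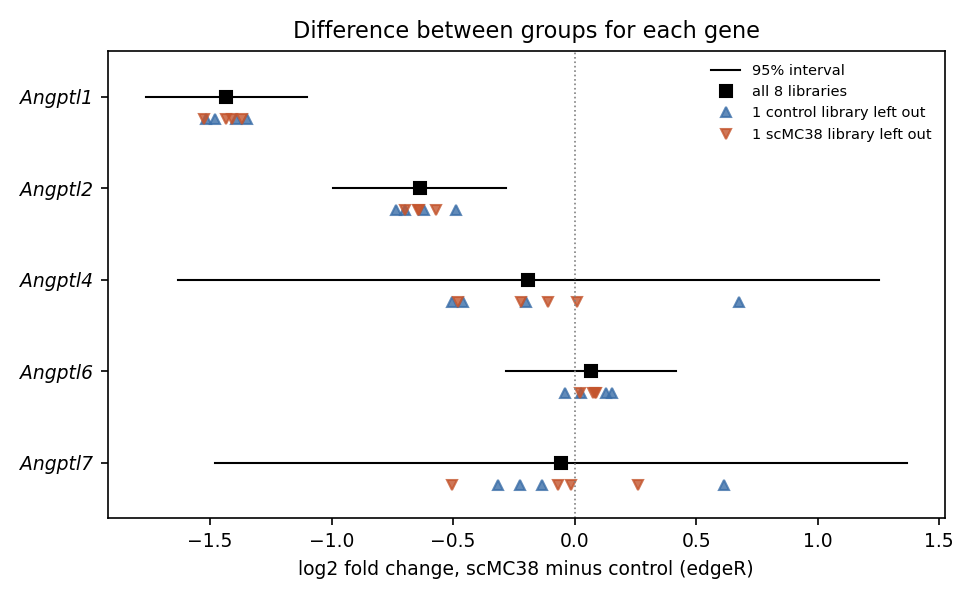
Log2 fold change of scMC38 minus control for the 5 genes (squares, with 95% intervals) and the same value with 1 library left out (triangles). Angptl1 and Angptl2 keep their direction in all 8 of these fits, and Angptl4, Angptl6 and Angptl7 do not.

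Angptl8, which acts on lipoprotein lipase and is made by liver and adipose tissue, was close to absent from these muscles. It had 1 to 30 counts, at most 0.567 CPM in scMC38 2. That library held the second highest adipocyte marker level of the 8. Control 4, which held the highest, had 11 counts of Angptl8. Library scMC38 1, whose adipocyte marker level was also above the control mean, had 1 count, the fewest. The part of fat cells in the Angptl8 counts was not tested.

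The spread between mice of 1 group is computed without the other group, and it differed among the 5 genes. A call, or groups that do not overlap, favours genes with a small spread. The values are therefore not independent of how the genes were chosen and are a description only. The SD of log2 CPM among controls was 0.23 for Angptl1, 0.31 for Angptl2 and 0.27 for Angptl6, above 59.8%, 71.0% and 66.3% of tested genes, whose median was 0.19. It was 1.39 for Angptl4 and 1.00 for Angptl7, above 98.7% and 97.3% of tested genes. In scMC38 the SD of Angptl7 was again among the highest (1.17, above 95.9% of genes), that of Angptl4 was 0.62 (above 86.7%) and that of Angptl6 was 0.09 (above 12.2%).

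Correlations between the 5 genes were computed on log2 CPM after subtracting each group's mean, so that the group difference plays no part (n = 8). Of the 10 pairs none passed the exact permutation test within groups after adjustment. Angptl2 and Angptl6 were the closest pair (Pearson r = 0.81, permutation p = 0.0608, adjusted p = 0.608; Spearman rho = 0.86, permutation p = 0.0556, adjusted p = 0.556). Without control 2 and 3, the libraries farthest from the median of Angptl2, r was 0.45, so the relation rests on these controls. Angptl1 and Angptl2 gave r = 0.44 (permutation p = 0.337, adjusted p = 0.842) and rho = 0.55 (permutation p = 0.212, adjusted p = 0.764), and r = 0.74 without control 1 and scMC38 1.

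Angptl7 was highest in control 3 and scMC38 1, where the mean level of tendon cell markers was above the control mean. The mean log2 CPM of 11 tendon markers, relative to the control mean, was 0.93 in control 3 and 0.36 in scMC38 1, where Angptl7 was highest, and -2.20 in scMC38 2, where it was lowest. After subtraction of group means r was 0.90 (permutation p = 0.00521, adjusted p = 0.247) and rho 0.83 (permutation p = 0.00694, adjusted p = 0.283), and r was 0.79 without control 3 and scMC38 2. The mean of 13 glucocorticoid targets ran the same way (r = 0.87, permutation p = 0.0139, adjusted p = 0.297; rho = 0.88, permutation p = 0.0191, adjusted p = 0.283; r = 0.75 without control 3 and scMC38 2). Its members differed. Per1 was at 99.0 CPM in control 3 and 36.2 CPM in scMC38 2, where Angptl7 was highest and lowest, but Fkbp5 was at 119 CPM in both. Tendon markers did not order Angptl7 throughout: they were higher in scMC38 3 (0.41) than in scMC38 1, and -1.14 in scMC38 4, where Angptl7 was above controls 1, 2 and 4. The tendon level of scMC38 1 and 3, the libraries with bone and marrow RNA, includes Chad (91.9 and 132 CPM) and Comp (42.6 and 39.1 CPM). Both genes were above every control there. Tnmd (5.73 CPM) and Kera (5.18 CPM) were below every control in scMC38 1. The r with tendon markers includes all these genes.

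Other relations of similar size were negative. Angptl2 and mural cell markers had the smallest p (r = -0.92, permutation p = 0.00174, the smallest the permutations can give, adjusted p = 0.165; rho = -0.95, permutation p = 0.00347, adjusted p = 0.283; r = -0.83 without control 2 and 3). Angptl6 and PPAR targets gave r = -0.92 (permutation p = 0.0139, adjusted p = 0.297) and rho = -0.90 (permutation p = 0.0208, adjusted p = 0.283), with r = -0.91 without control 2 and 3. Angptl1 and the lipoprotein lipase list gave r = -0.87 (permutation p = 0.0156, adjusted p = 0.297) and rho = -0.83 (permutation p = 0.0260, adjusted p = 0.309), with r = -0.85 without control 1 and scMC38 1. Angptl2 and endothelial markers gave r = -0.81 (permutation p = 0.0208, adjusted p = 0.330) and rho = -0.90 (permutation p = 0.0139, adjusted p = 0.283), with r = -0.88 without control 2 and 3. Angptl4 and its listed regulators gave r = -0.81 (permutation p = 0.0382, adjusted p = 0.440) and rho = -0.83 (permutation p = 0.0313, adjusted p = 0.330), with r = -0.51 without control 2 and 4. Angptl6 and mural markers gave r = -0.80 (permutation p = 0.0347, adjusted p = 0.440) and rho = -0.81 (permutation p = 0.0139, adjusted p = 0.283), with r = -0.59 without control 2 and 3. None of the 95 relations between the 5 genes and 19 lists passed after adjustment.

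For Angptl4 the adipocyte markers were the natural comparison, as fat cells make much of this protein. The mean log2 CPM of 11 adipocyte markers was 2.01 above the control mean in control 4, where Angptl4 was highest, and -0.997 in control 2, where it was lowest. Over all 8 libraries, after subtraction of group means, r was 0.63 (permutation p = 0.201, adjusted p = 0.713) and rho 0.52 (permutation p = 0.271, adjusted p = 0.744). Without control 2 and 4 it was -0.26, so the relation rests on those libraries. The marker Adipoq, adiponectin, was at 80.4 CPM in control 4 and between 6.28 and 41.5 CPM in the other 7.

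**Figure D3:**
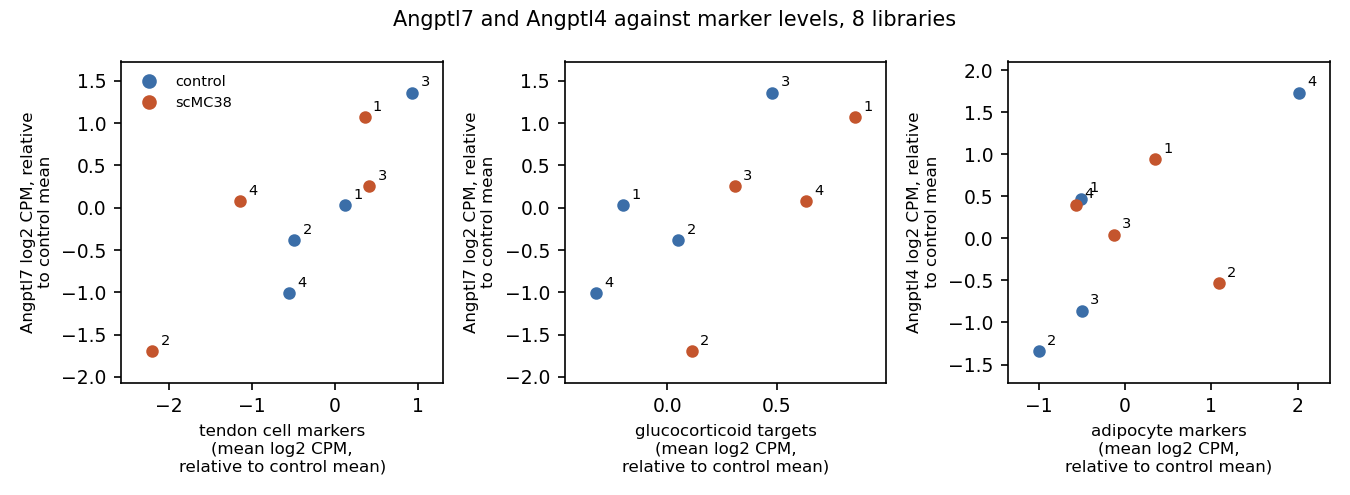
Log2 CPM of Angptl7 against tendon cell markers and glucocorticoid targets, and of Angptl4 against adipocyte markers, each relative to the control mean. Points are the 8 libraries with their replicate number. Control 3 and scMC38 1 are high for Angptl7, and control 4 is high for Angptl4 and for adipocyte markers.

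The genes whose log2 CPM pattern over the 8 libraries was most like each member were picked by Pearson r, among tested genes averaging log2 CPM 1 or more. For Angptl1 they were Bbs1 (r = 0.98), Golm2 (0.98) and Ube2n (0.975). Within groups Golm2 stayed close (r = 0.955 after subtraction of group means) while Bbs1 and Ube2n were at 0.613 and 0.555. For Angptl2 they were Itm2a (0.99), Rhbdl1 (0.97) and Lsmem1 (0.96), all at 0.88 or above within groups. Angptl4 was closest to Exoc2 (0.95), Asb3 (0.94) and Zmym6 (0.93), Angptl6 to Il12a (0.97), Cep76 (0.97) and Tada2a (0.95). Angptl7 was closest to Per1 (0.95), a clock gene that glucocorticoids induce, then to Cilp2 (0.90), a cartilage and tendon matrix gene, and Boc (0.90). These are the highest of many values over 8 libraries, so a high r is a description of likeness only.

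Fibroblasts make matrix and secreted factors of the muscle interstitium, and their markers leaned lower in scMC38. Of 17 markers of fibroblasts and fibro-adipogenic progenitors, 2 were called, both lower, and 15 had a negative log2 fold change. Over all 14112 tested genes 0.468% were called lower and 7034 had a negative log2 fold change. The median of the 17 markers was -0.43, against 0.00086 over all tested genes. Col3a1, a fibrillar collagen, fell by 1.96 (SE 0.33, edgeR adjusted p = 0.0352) and Smoc2, a matricellular protein gene, fell by 0.70 (SE 0.13, edgeR adjusted p = 0.0478). With 1 library left out, Col3a1 was called only without scMC38 1 and Smoc2 only without scMC38 3 (edgeR adjusted p up to 0.102 and 0.129). Pdgfra, which defines these cells, was at 39.0 ± 6.40 CPM in controls and 30.9 ± 6.82 CPM in scMC38 (SD, n = 4; log2 fold change -0.33, SE 0.18, edgeR adjusted p = 0.321). The log2 fold change of Angptl1 (-1.43) was below that of 16 of the 17 markers, and that of Angptl2 (-0.64) below that of 11. The mean log2 CPM of the 17 markers was -0.23, -0.73, -0.20 and -1.20 relative to the control mean in scMC38 1 to 4, against -0.19 to 0.19 in controls. Col1a1, at 2214 CPM in scMC38 3 against a control mean of 170 CPM, raised the level of that library, which held bone and marrow RNA. The part of the marker level in the difference of Angptl1 and Angptl2 was not tested. Relations with the level, given next, include Col1a1. Within groups the marker level and Angptl1 gave r = 0.46 (permutation p = 0.266, adjusted p = 0.713) and rho = 0.50 (permutation p = 0.241, adjusted p = 0.744), with r = 0.37 without control 1 and scMC38 1. For Angptl2 the same relation gave r = 0.089 (permutation p = 0.799, adjusted p = 0.957) and rho = 0.29 (permutation p = 0.479, adjusted p = 0.799), with r = -0.059 without control 2 and 3.

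**Figure D4:**
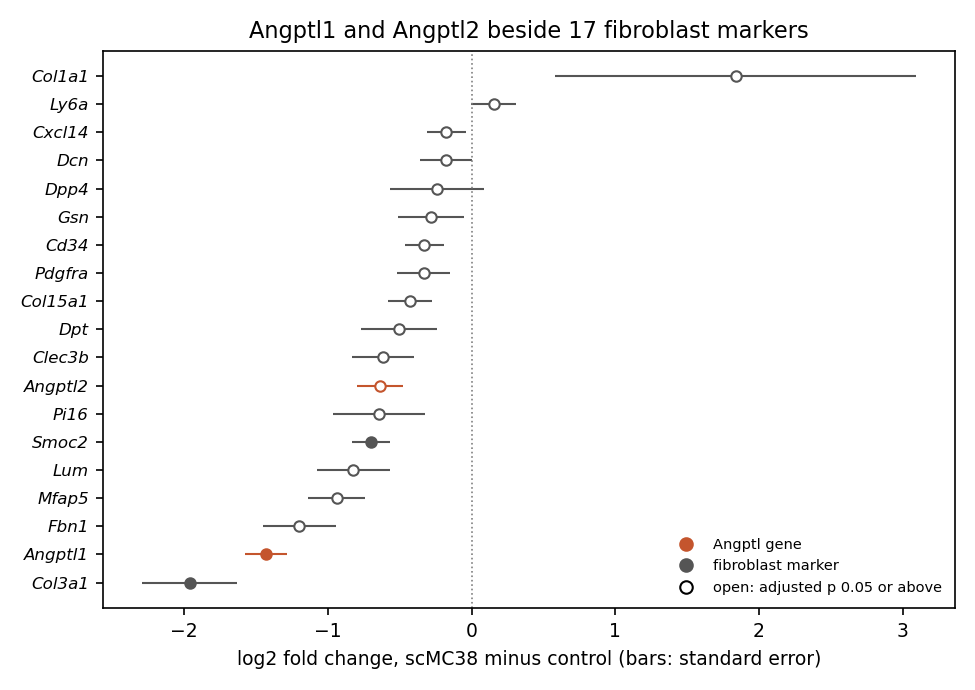
Log2 fold change (scMC38 minus control, bars are standard errors) of Angptl1, Angptl2 and 17 fibroblast markers. Filled points passed the adjusted p threshold of 0.05. Angptl1 lies below every marker except Col3a1, and Col1a1, high in the library scMC38 3 that held bone RNA, has the widest error.

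Tendon markers had 0 of 11 called and a median of -0.58, with 8 negative and 3 positive. Of all tested genes 1.20% were called. Chad was the highest of them (2.19, SE 1.23, edgeR adjusted p = 0.339), with its highest levels in scMC38 1 and 3. Kera, keratocan (-2.08, SE 0.41, edgeR adjusted p = 0.0569), and Tnmd, tenomodulin (-1.90, SE 0.57, edgeR adjusted p = 0.123), had the smallest p. Mural cell markers (0 of 9 called, median -0.43) and Schwann cell markers (0 of 6, median -0.76) also leaned lower, and macrophage markers leaned higher (0 of 10, median 0.86). Endothelial markers (0 of 10, median -0.02), adipocyte markers (0 of 11, median -0.15) and muscle fibre markers (0 of 10, median -0.06) had medians nearer to 0. Members went both ways for endothelial and for muscle fibre markers, with 5 of 10 positive in each. Of the adipocyte markers 2 were positive and 9 negative. Neutrophil markers (0 of 10 called, median 7.85) and the 3 tested bone and marrow markers (0 called, median 2.92) were highest in scMC38 1 and 3. Angptl1 was 6.56 and 5.25 CPM in these libraries and 5.58 and 4.76 CPM in scMC38 2 and 4.

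The lipoprotein lipase system that Angptl4 acts on showed no call among 13 tested genes (7 positive, median 0.0030), where 1.20% of all tested genes were called. Lpl itself was at 666, 1084, 326 and 331 CPM in controls 1 to 4 and at 397, 466, 614 and 762 CPM in scMC38 1 to 4. The groups overlapped. Control 2, with the most Lpl, had the least Angptl4, but control 3, with the least Lpl, had the next lowest Angptl4. The log2 fold change of Lpl was -0.10 (SE 0.40, edgeR adjusted p = 0.908), and it was 0.34 without control 2, the opposite sign. Gpihbp1, which carries the lipase to the vessel wall, was at -0.24 (SE 0.26, edgeR adjusted p = 0.618) and Cd36, a fatty acid carrier, at 0.0030 (SE 0.27, edgeR adjusted p = 0.997). Vldlr, a lipoprotein receptor (0.37, SE 0.14, edgeR adjusted p = 0.184), and Apoe (0.51, SE 0.29, edgeR adjusted p = 0.342) had the smallest p of the list.

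Regulators and co-targets of Angptl4 were mostly not called, as were all but 1.20% of tested genes. Among 10 transcriptional regulators reported to act on Angptl4, Hif1a, the oxygen-regulated factor, rose from 22.5 ± 1.56 to 35.7 ± 4.56 CPM (SD, n = 4; log2 fold change 0.66, SE 0.10, edgeR adjusted p = 0.0310). Its call was lost in 5 of the 8 fits that leave out 1 library (edgeR adjusted p up to 0.107), namely without control 1, 2, 3 or 4 or without scMC38 2. Ppara was at -0.61 (SE 0.52, edgeR adjusted p = 0.528) and Ppard at 0.31 (SE 0.11, edgeR adjusted p = 0.158). Of 17 hypoxia-inducible targets 0 were called (10 positive, median 0.05), with Adm, adrenomedullin, at 0.91 (SE 0.19, edgeR adjusted p = 0.0680) and Bnip3, a mitophagy receptor, at 0.55 (SE 0.15, edgeR adjusted p = 0.106). Of 19 tested PPAR targets 0 were called (5 positive, median -0.09). Pdk4, which brakes glucose oxidation, was at 0.36 (SE 0.28, edgeR adjusted p = 0.496), and the acyl-CoA thioesterases Acot1 and Acot2 had the smallest p (1.09 and 0.69, edgeR adjusted p = 0.307 and 0.357).

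Glucocorticoid targets leaned higher, with 12 of 13 positive (median 0.42) and 1 called. Over all 14112 tested genes 7078 were positive and 0.737% were called higher. Pik3r1, a PI3-kinase subunit, rose by 1.03 (SE 0.16, edgeR adjusted p = 0.0315), a call lost in 6 of the 8 fits that leave out 1 library, those without control 1, 2, 3 or 4 or without scMC38 1 or 4 (edgeR adjusted p up to 0.114). Fkbp5 was at 0.94 (SE 0.30, edgeR adjusted p = 0.136).

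Reported binding partners and processing enzymes came next. Pirb, the mouse counterpart of a human receptor for Angptl2, was 2.04, 2.58, 2.59 and 3.19 CPM in controls 1 to 4 and 9.27, 5.17, 23.5 and 3.37 CPM in scMC38 1 to 4. All scMC38 libraries lay above the controls, as for 6.80% of tested genes, with scMC38 1 and 3 far above. Its log2 fold change was 1.99 (SE 0.55, edgeR adjusted p = 0.107), and 0.73 without scMC38 1 and 3. Lilrb4a, a related myeloid receptor, was at 2.58 (SE 0.81, edgeR adjusted p = 0.132). Both are genes of myeloid cells. In scMC38 1 to 4 the mean log2 CPM of macrophage markers, relative to the control mean, was 1.42, 0.73, 1.35 and -0.25, and that of neutrophil markers was 5.91, 1.16, 9.01 and 2.67. Among scMC38 libraries, Pirb and Lilrb4a were highest in scMC38 3, as were the neutrophil markers, and lowest in scMC38 4, as were the macrophage markers. The macrophage markers were highest in scMC38 1, and the neutrophil markers were lowest in scMC38 2. The part of these cells was not tested. No gene of this list of 9, which includes integrin chains bound by Angptl2 and Angptl4, was called. Of the 4 proprotein convertases, which cut Angptl proteins, 0 were called. Of all tested genes 1.20% were called. Furin was at 0.28 (SE 0.07, edgeR adjusted p = 0.0882), all scMC38 libraries being above all controls, as for 6.80% of tested genes. Pcsk5 was at -0.71 (SE 0.28, edgeR adjusted p = 0.202).

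Among genes that share the fibrinogen-like domain, 8 of 16 were tested and 1 was called, against 1.20% of all tested genes. Mfap4, a matrix protein that binds elastic fibres, fell from 7.18 ± 2.26 to 2.31 ± 0.888 CPM (SD, n = 4; log2 fold change -1.63, SE 0.30, edgeR adjusted p = 0.0478). With 1 library left out the call held only without scMC38 1 (edgeR adjusted p up to 0.128 in the other fits). The angiopoietins and their Tie receptors, whose protein plan the family shares, had 0 of 6 called, with Angpt2 at -0.82 (SE 0.27, edgeR adjusted p = 0.140) and the phosphatase gene Ptprb at -0.34 (SE 0.18, edgeR adjusted p = 0.301).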

How the data were processed

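Quadriceps RNA of 8 mice was sequenced, 1 library per mouse, and groups were taken from the sample titles. Values as deposited by the authors are estimated counts, 1 row a gene, with no scaling by depth or length. A fraction is present in 49.3% of the nonzero ones. Per the submitters' processing notes, fastp 1.0.1, FastQC 0.12.1, MultiQC 1.30, Salmon 1.10.3, R 4.4.3 and the build GRCm39 were used, with no roles or order. For the annotation and the step from transcripts to genes, the sources used here state nothing. RNA was isolated with a column kit and libraries were made with an mRNA-seq kit, per the labels' protocols.

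Of 35667 rows, 144 without a symbol (0.00270% to 0.00403% of counts) were left out, rows of 26 repeated symbols were summed, and counts were rounded. Libraries of 1 group differed beyond counting noise (chi-square per degree of freedom 63.2 to 480), so each was 1 replicate. The labels name separate animals in the design but p-values still measure the spread between these 8 libraries only.

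The group comparison used edgeR 4.0.16 (R 4.3.3) after filterByExpr (minimum count 10, minimum total 15), with TMM scaling, robust quasi-likelihood F test, no covariate, Benjamini-Hochberg over 14112 genes, threshold 0.05. The procedure was tested on simulated data. A prior count of 2 was added for log2 CPM. Correlations used 576 permutations within groups and are two-sided. Lengths come from GENCODE M21.

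The members, the gene lists and the tests were chosen with earlier results of these data known. Beside the members, the rule named a fixed set (Lpl, Gpihbp1, Pdk4, Cd36, Ppara, Ppard, Fkbp5, Pdgfra, Ralgps1, Ralgps2, Mtor and Angptl8, and 1 gene not reported here), up to 4 called genes of each list or the 2 with the smallest p, and the 3 genes most like each member. For marker lists other than fibroblast and tendon, medians and levels are given in place of single genes. Ibsp, Mpo, Adipoq, Ckm, Acta1, Col1a1, Chad, Comp, Myh1, Myh2, Myh4, Ttn and Pygm were named after their values were seen. Alternatives were DESeq2 1.42.0, other scalings and filters, libraries left out and a replicate block.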

Additional observations from a re-analysis of the deposited data

Results flagged for a closer look

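Outlying libraries were looked for in 36 groups of 4 libraries (levels of family genes and of marker lists), where chance flags about 1 in 20. Control 4 stood apart in 2 of them: its adipocyte marker level was 2.01 above the control mean, and its muscle fibre marker level was -0.55. The myosin genes Myh2 and Myh1 of the fibre list were lower there than in any other library (9.42 and 386 CPM). Myh4, Ttn, Pygm and Eno3 of the same list were higher in control 4 than in the other controls. The low level therefore does not describe the fibre list as a whole. Control 4 also had the highest Angptl4 of all 8 libraries. None of the family genes reported here had a library that stood apart from its group by this measure.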

How the results depend on the processing

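Nothing in the labels pairs the mice by replicate number. Deviations of same-numbered libraries correlated between -0.28 and -0.0058, a check that cannot exclude a pairing with a small effect on expression. With a replicate block edgeR called 0 genes higher and 1 lower, and 0 and 0 of the listed genes. The block left Angptl1 at -1.43 without its call and put Angptl4 at 0.23 and Lpl at 0.040. Over all tested genes 104 were called higher and 66 lower, against 829 and 597 by DESeq2, 221 and 55 with total counts (80.1% of calls higher, against 61.2%; median of all genes shifted to 0.11), 69 and 45 without a filter, 25 and 39 without scMC38 1 and 3, and 0 and 0 without control 1 and 2 (1605 genes at an unadjusted p under 0.05). With 1 library left out these counts ran from 1 to 59 and from 1 to 52, lowest without control 1. Of the listed genes outside the family 2 were called higher and 3 lower: 22 and 17 by DESeq2, 5 and 1 with total counts, 0 lower without a filter, 1 higher without scMC38 1 and 3, 0 and 0 without control 1 and 2, and 0 to 3 in each direction with 1 library left out.

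Angptl1 kept its direction in all 17 alternatives (-1.52 to -1.33) and lost its call under the block, without control 1 (-1.35) and without control 1 and 2 (-1.44). Angptl2 ran from -0.87 to -0.49 and was called by DESeq2 alone (-0.63). With 1 library left out Angptl4 ran from -0.50 to 0.68, Angptl6 from -0.038 to 0.15, Angptl7 from -0.51 to 0.61, Lpl from -0.31 to 0.34, Gpihbp1 from -0.395 to 0.014, Cd36 from -0.14 to 0.28, Ppara from -0.93 to 0.079 and Ralgps2 from -0.46 to 0.069. Without control 1 and 2, Angptl6 was at -0.15, Lpl at 0.76, Gpihbp1 at 0.0028, Ppara at 0.52 and Ralgps2 at 0.20. With total counts Angptl7 was at 0.058, Lpl at 0.023 and Ralgps2 at 0.027, and Lpl was at 0.054 without scMC38 1 and 3. The causes were not tested.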
